A study of Gallus gallus with 34 samples.

Results

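Complement genes were followed in the chick eye over the first days of lens-wear. A list of 7 genes was named, C1QA, C1QB, C1QC, C1S, C3, CFI and C7, and a gene entered when its symbol stood in the annotation of the deposited count table. Of the 7 named genes, 5 were present among the 13067 genes of the table: C1QA (ENSGALG00000021569), C1QB (ENSGALG00000004771), C1S (ENSGALG00000014603), CFI (ENSGALG00000012126) and C7 (ENSGALG00000014835). The symbols C3 and C1QC matched no row, and no value is given under either name. A row with the symbol C3D (ENSGALG00000011509), which the table describes as a complement C3 precursor, is reported apart from the members.

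Messenger RNA was measured by RNA sequencing in a joint sample of choroid, pigment epithelium and retina from 34 male chicks of a Leghorn and New Hampshire cross, with 1 eye from each. Lenses were put on the right eye at post-hatch day 5, and each chick was sampled once, on post-hatch day 6, 7 or 8, so the days compare different chicks. Negative lenses of 10 D drive faster eye growth and myopia, positive lenses of 10 D slow eye growth and drive hyperopia, and No Lens chicks grew normally. The No Lens groups of 1 day and 2 days had 3 chicks each, and the No Lens group of 3 days, the Negative lens groups of 1, 2 and 3 days and the Positive lens groups of 1, 2 and 3 days had 4 each. The study had picked the sequenced chicks for a strong and uniform biometric response, so the spread within a group may be smaller than in all lens-wearing chicks. Nothing was deleted or overexpressed in any group.

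Complement is a cascade of blood and tissue proteins that marks cells and debris for removal. C1q, built from the A, B and C chains, recognises its targets and switches on the proteases C1r and C1s, which cleave C4 and C2. The cascade then converges on C3, is held back by regulators such as factor I, and may end in the membrane attack complex, in which C7 anchors the growing complex in the membrane. In the eye, C1q is known as a product of microglia and macrophages, and the choroid is rich in both vessels and stromal cells.

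Among the 5 members, C7 was the gene that differed most between lens groups, but it is taken here as chosen by its measured change on the earlier days. Which values led to that choice is not stated, and those after 3 days may have had a part in it. After 3 days of lens-wear its level in Negative lens chicks was 0.200 of that in Positive lens chicks (log2 fold change -2.32 ± 0.30 SE, adjusted p = 0.00627). The 4 Negative lens chicks all lay below the 4 Positive lens chicks, as was found for 2.01% of the genes tested. The difference no longer passed with stroma and fibroblast markers as a covariate (log2 -1.78 ± 0.35, adjusted p = 0.399). The C1q chains C1QA and C1QB were also highest in the Positive lens group of 3 days, but neither passed the test. C1S passed in no comparison. CFI was too low for the tests between lens groups or days, and it passed in none of the 6 tests of a change in lens effect between days.

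Depth set how finely each member could be read. The libraries held 1592763 to 13765634 counts, with a median of 5014244, and the shallowest was replicate 2 of the Positive lens group of 3 days. C7 had 44 to 1011 reads per chick and C1S had 15 to 438. C1QA had 1 to 49 reads, C1QB had 2 to 61 and CFI had 1 to 19. At the median count, counting error alone was 8.18% for C7, 8.91% for C1S, 22.7% for C1QB, 28.9% for C1QA and 39.2% for CFI, against a variation between chicks of one group of 30.1 to 39.2% for these 5 genes. Defining genes of the pigment epithelium and of vessels were found in every library: RPE65 had at least 1588 reads and the endothelial gene KDR at least 357.

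Libraries also stood apart within groups on a pair of measures. The first principal component of the group-centred values of 11851 genes outside the complement lists held 43.2% of their variance and is called the library axis here. Its score spread widely inside most groups, from -77.3 to 27.0 in the Positive lens group of 2 days, yet it separated the No Lens chicks of 3 days (-23.3 to -4.78) from the Positive lens chicks of 3 days (13.5 to 20.3). A list of 10 striated muscle genes, chosen after the data were seen, summed to 15.3 to 89.0 CPM (read counts scaled to a common library size) in 30 libraries and to more than 100 in 4. Those 4 were Positive lens 3 days replicate 4 (2748 CPM), Positive lens 3 days replicate 1 (1020 CPM), No Lens 3 days replicate 4 (246 CPM) and Positive lens 1 day replicate 3 (127 CPM). The library at 89.0 CPM, just under that limit, was Positive lens 3 days replicate 2. The next below it was Negative lens 1 day replicate 1 (65.1 CPM). Both measures are given below beside the results they move with. In such mixed tissue, more cells of a type and more RNA per cell cannot be told apart.

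C1QA codes for the A chain of C1q. Normalised by the trimmed mean of M-values (TMM), its level after 3 days was 1.29, 3.86, 1.21 and 1.93 CPM in the No Lens chicks. It was 2.86, 2.11, 3.38 and 1.17 CPM in the Negative lens chicks and 5.55, 4.72, 3.92 and 5.13 CPM in the Positive lens chicks. Every Positive lens chick was above every chick of the other groups of that day, and the No Lens and Negative lens chicks overlapped. The fold change of Positive lens against No Lens was 2.32 (log2 1.21 ± 0.37), and it was not called (adjusted p = 0.0936). Of all genes tested in that comparison, 9.13% were likewise higher in every Positive lens chick than in every No Lens chick.

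C1QB codes for the B chain and lies beside the other C1q chain genes in the chicken RefSeq annotation. After 3 days it measured 2.94, 3.86, 4.65 and 5.60 CPM in the No Lens chicks. The Negative lens chicks had 2.38, 3.72, 3.75 and 1.49 CPM, and the Positive lens chicks had 8.08, 7.42, 5.69 and 6.26 CPM. Positive lens chicks were again the highest, the nearest gap being 5.69 against 5.60 CPM. Neither difference was called: Positive lens exceeded No Lens by 0.63 ± 0.29 on the log2 scale (adjusted p = 0.279), and Negative lens was below Positive lens by log2 -1.30 ± 0.31 (adjusted p = 0.177). C1QA was below Positive lens by a like amount in that last comparison (log2 -1.15 ± 0.38, adjusted p = 0.509). With C7 these made 3 of the 4 tested members whose Negative lens chicks all lay under the Positive lens chicks, where 2.01% of the genes tested did so. The members were chosen with earlier results of these data known, so this count is only a description.

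**Figure D1:**
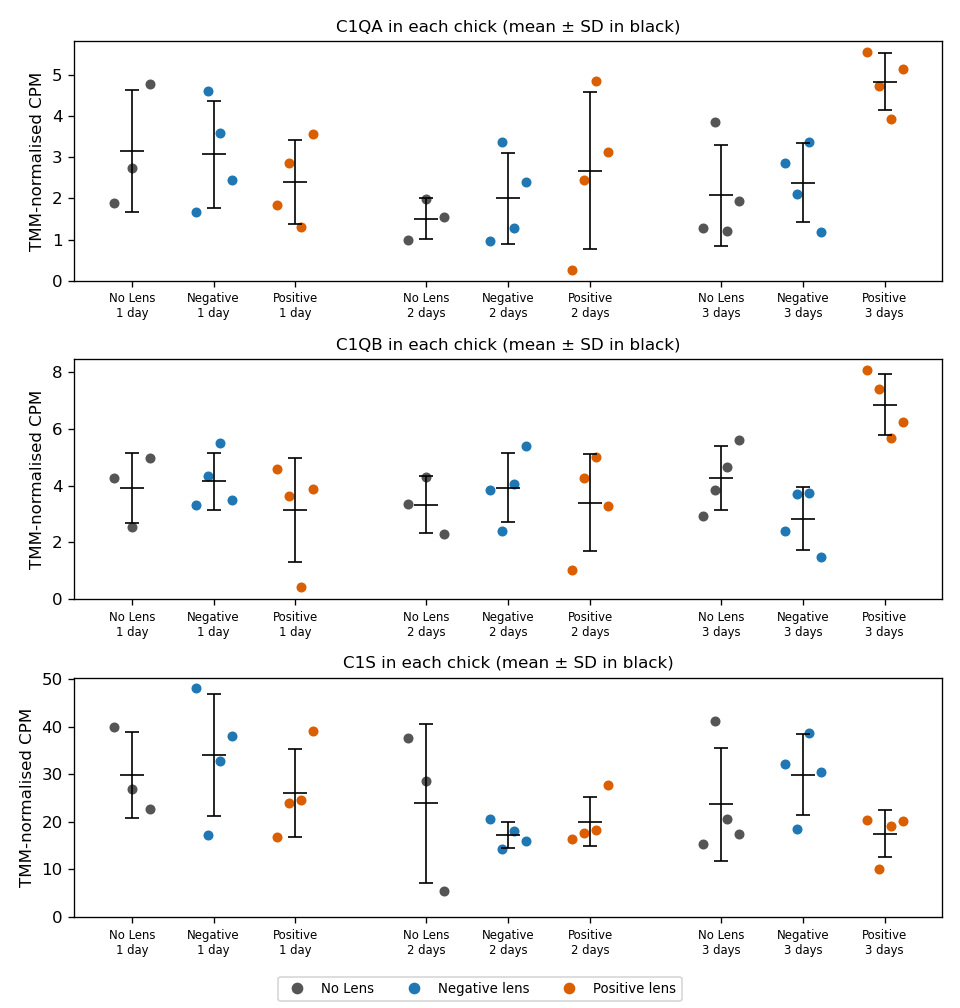
TMM-normalised CPM (y axis) of C1QA, C1QB and C1S in each chick (points), by lens and days of lens-wear (x axis), with the group mean and SD in black. The Positive lens chicks of 3 days sit above the other chicks of that day for C1QA (3.92 to 5.55 CPM) and C1QB (5.69 to 8.08 CPM), while C1S overlaps between lens groups on every day.

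On days 1 and 2 the C1q chains showed no such order. C1QA ranged from 1.30 to 4.78 CPM over the chicks of 1 day and from 0.260 to 4.86 CPM over those of 2 days, and all 3 lens groups overlapped on both days. The lowest value, 0.260 CPM, was a single read in a Positive lens chick of 2 days. C1QB overlapped as well, between 0.434 and 5.50 CPM on day 1 and between 1.04 and 5.40 CPM on day 2. In the Positive lens groups, day 3 stood above day 1 for both chains in every chick, a pattern of 2.56% of the genes tested, with log2 fold changes of 1.00 ± 0.49 for C1QA (adjusted p = 0.839) and 1.09 ± 0.49 for C1QB (adjusted p = 0.812). C1QB was also above day 2 in every chick (log2 0.96 ± 0.49, adjusted p = 1.00), where 1.82% of genes were. The Positive lens effect on C1QA was larger on day 3 than on day 1 by log2 1.67 ± 0.70, which did not pass over all genes (adjusted p = 0.584). No member passed in any of the 6 tests of a change in lens effect between days, where the share of all genes called was 0% and the share with an unadjusted p below 0.05 ran from 1.74 to 7.98%.

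C1QA moved with the library axis. Within groups, over the 34 chicks, its log2 level followed the axis score with Pearson r = 0.75 and Spearman rho = 0.65 (chicks permuted within groups, p = 0.00023 and 0.00063, adjusted over 15 relations to 0.00345 and 0.00945). Without the 2 chicks farthest out on the axis, r was 0.57. For C1QB, r was 0.53 (permutation p = 0.0372, adjusted p = 0.186) and rho 0.28, and without those 2 chicks r was -0.05, so that relation rested on them. C7 showed r = 0.26 (permutation p = 0.243, adjusted p = 0.364), C1S r = -0.21 (permutation p = 0.242) and CFI r = 0.21 (permutation p = 0.239), both with an adjusted p of 0.364.

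With the axis score as a covariate, a fit chosen after the data were seen, the difference of Positive lens from No Lens after 3 days was log2 0.48 ± 0.51 for C1QA and 0.21 ± 0.45 for C1QB. The summed macrophage and microglia markers, of which the 9 present in the table were detected in every library, ranged from 109 to 138 CPM in the No Lens chicks of 3 days, from 108 to 115 in the Negative lens chicks and from 117 to 164 in the Positive lens chicks. Their part in the C1q values was not tested.

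**Figure D2:**
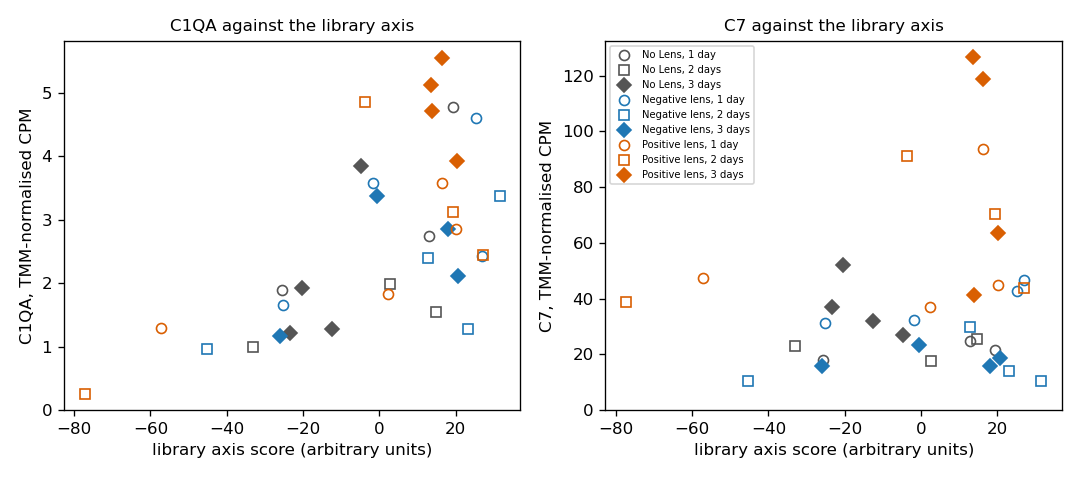
TMM-normalised CPM (y axis) of C1QA, left, and C7, right, against the library axis score (x axis, arbitrary units) in the 34 chicks, coloured by lens and shaped by day. C1QA climbs with the score (within-group r = 0.75), and the Positive lens chicks of 3 days (filled orange) lie at 13.5 to 20.3 on the axis. C7 was at 41.1 to 127 CPM in those chicks. Negative lens chicks of 3 days with scores of 18.0 and 20.7 had 15.7 and 18.7 CPM of C7. Negative lens chicks of 1 day with scores of 25.2 and 26.9 had 42.7 and 46.5 CPM.

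The chains also moved together: within groups C1QA and C1QB had r = 0.55 (permutation p = 0.0095, adjusted p = 0.0712) and rho = 0.47 (permutation p = 0.0158, adjusted p = 0.118), which misses the threshold after adjustment. Without the 2 chicks farthest out, r was 0.36, and after regression on the library axis it was 0.28. None of the other 9 pairs of members passed. The pair C7 and C1QA came nearest with r = 0.38 (permutation p = 0.0586, adjusted p = 0.22), and C1S with CFI had r = -0.38 (permutation p = 0.0784, adjusted p = 0.235).

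C1S is the C1 protease that cleaves C4 and C2. It was measured at 48.1, 17.3, 32.8 and 38.1 CPM in Negative lens chicks of 1 day, at 20.7, 14.2, 18.0 and 16.0 CPM in those of 2 days and at 32.2, 18.5, 38.7 and 30.4 CPM in those of 3 days. Of the 4 chicks of day 1, 3 lay above all chicks of day 2, and the groups overlapped through the remaining one. The change from day 1 to day 2 was log2 -1.003 ± 0.278 and that from day 2 to day 3 was 0.76 ± 0.28, neither of them called (adjusted p = 0.543 and 0.953).

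Between lens groups C1S differed most after 3 days, where Positive lens chicks had 20.4, 10.1, 19.2 and 20.2 CPM. Negative lens exceeded Positive lens by log2 0.68 ± 0.30 (adjusted p = 0.721), the groups overlapped, and the direction was opposite to that of C1QA, C1QB and C7. The lowest of these, 10.1 CPM, came from 15 reads in the shallowest library. The No Lens chicks of 3 days had 15.4, 41.1, 20.6 and 17.5 CPM, so 1 control chick was higher than any lens-wearing chick of that day. On day 2 a No Lens chick stood low at 5.39 CPM beside 37.6 and 28.6 CPM. On day 1 the values ran from 16.8 to 48.1 CPM with overlap between all lens groups.

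The row C3D, for the protein on which all complement pathways converge, had 0 to 41 reads per chick and was at 0 in 2 No Lens libraries, 1 of 1 day and 1 of 3 days. After 3 days it was at 0, 0.579, 1.21 and 1.38 CPM in No Lens chicks, at 1.43, 1.74, 1.501 and 0.746 CPM in Negative lens chicks and at 2.36, 1.35, 2.16 and 5.01 CPM in Positive lens chicks. The Positive lens chicks overlapped both other groups. The gene was too low for the tests of the lens groups by day, and when all 34 chicks entered a single fit its lowest adjusted p over 18 comparisons was 0.357. Its largest fold change in that fit was log2 -2.37, for Negative lens against Positive lens after 2 days (adjusted p = 0.691). In edgeR without the filter on low counts the lowest adjusted p over 24 comparisons was 0.112. DESeq2 gave an adjusted p of 0.0714 for Positive lens against No Lens after 3 days.

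CFI codes for factor I, the protease that inactivates C3b and C4b. Over the 34 chicks it had a median of 6.5 reads and 0.238 to 2.57 CPM. Group means lay between 0.793 ± 0.612 CPM (SD, n = 4), in Negative lens chicks of 3 days, and 1.89 ± 0.441 CPM (SD, n = 4), in Positive lens chicks of 1 day. Lens groups overlapped on every day. CFI did not pass the filter on low counts in the fits by day or by lens group, and with all 34 chicks in a single fit its lowest adjusted p over 18 comparisons was 0.624. Positive lens chicks of 2 days (0.916 to 1.32 CPM) lay below those of 1 day (1.36 to 2.38 CPM) without overlap, from 3 to 8 reads against 8 to 19, and 0.866% of the genes tested did so. No difference was detected at this depth.

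C7 is the terminal component that carries the membrane attack complex into the membrane. Which values led to the choice of C7 is not stated in the sources used here. It was taken as chosen by its measured change under positive lenses against No Lens on the earlier days and under negative lenses between them. Every comparison of C7 that holds chicks of 1 or 2 days is therefore a description, with no p-value given. Where a call or its absence is stated for such a comparison, it supports nothing. Only the comparisons among the chicks of 3 days are tested. Values of day 3 may also have had a part in the choice of C7. The p-values of that day may therefore be too small. After 1 day the No Lens chicks had 18.0, 24.7 and 21.5 CPM. The Negative lens chicks had 31.1, 42.7, 32.3 and 46.5 CPM, and the Positive lens chicks had 37.0, 45.0, 47.3 and 93.5 CPM. Both lens groups lay above all No Lens chicks and overlapped each other. The log2 fold changes were 0.83 ± 0.28 for Negative lens and 1.36 ± 0.28 for Positive lens. No overlap in the same direction was found in 2.8% of the genes tested for the negative lens and in 2.73% for the positive lens. In neither comparison did edgeR call any gene (0% of 11448), with an unadjusted p below 0.05 in 3.18 and 3.87% of genes and calls by DESeq2 in 0.171 and 0.0383%. Negative lens against Positive lens gave log2 -0.53 ± 0.25. There edgeR called 0.0262% of genes, all of them lower, 3.8% had an unadjusted p below 0.05, and DESeq2 called 0.208%.

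After 2 days the lens groups had parted. The No Lens chicks had 22.9, 17.6 and 25.4 CPM, the Negative lens chicks had 10.6, 10.6, 14.1 and 29.8 CPM, and the Positive lens chicks had 38.7, 43.7, 91.0 and 70.3 CPM. Positive lens chicks were above all others of that day, and 3 of 4 Negative lens chicks were below all No Lens chicks. Positive lens exceeded No Lens by log2 1.47 ± 0.39, where 1.68% of the genes tested showed no overlap in that direction. There edgeR called 0% of genes, 2.51% had an unadjusted p below 0.05 and DESeq2 called 0.0689%. Negative lens against No Lens gave log2 -0.47 ± 0.39, where edgeR called 0% of genes, 4.98% had an unadjusted p below 0.05 and DESeq2 called 0.326%. Negative lens against Positive lens, which holds the same chicks, gave log2 -1.94 ± 0.36, and 1.31% of the genes tested showed no overlap in that direction. In this last comparison edgeR called 0.0526% of genes, C7 not among them, and DESeq2 called 0.0919%.

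After 3 days C7 stood at 32.0, 27.0, 37.0 and 52.1 CPM in No Lens chicks. It stood at 15.7, 18.7, 23.3 and 15.8 CPM in Negative lens chicks and at 119, 41.1, 63.4 and 127 CPM in Positive lens chicks. The Negative lens chicks were below every other chick of that day, and the Positive lens chicks overlapped the No Lens chicks only through 41.1 against 52.1 CPM.

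The difference between the lenses of opposite sign, log2 -2.32 ± 0.30, was called together with 0.0348% of the genes tested, all of them lower under the negative lens, and C7 ranked 2 by p. At an unadjusted p below 0.05 stood 6.58% of genes, and all 4 tested members were among them, C1S higher under the negative lens and the other 3 lower. Positive lens against No Lens, with log2 1.25 ± 0.28, was called at an adjusted p of 0.0452, where 0.878% of genes were called, 0.817% as higher and 0.0609% as lower. An unadjusted p below 0.05 was found for 17.6% of genes and for 3 of the 4 tested members. The members were chosen with earlier results of these data known, so both counts of members are only a description. Negative lens against No Lens, with log2 -1.07 ± 0.30, was not called (adjusted p = 0.413). In that comparison edgeR called 0% of genes, 10.3% had an unadjusted p below 0.05, DESeq2 called 0.0536%, and 1.98% lay lower without overlap.

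**Figure D3:**
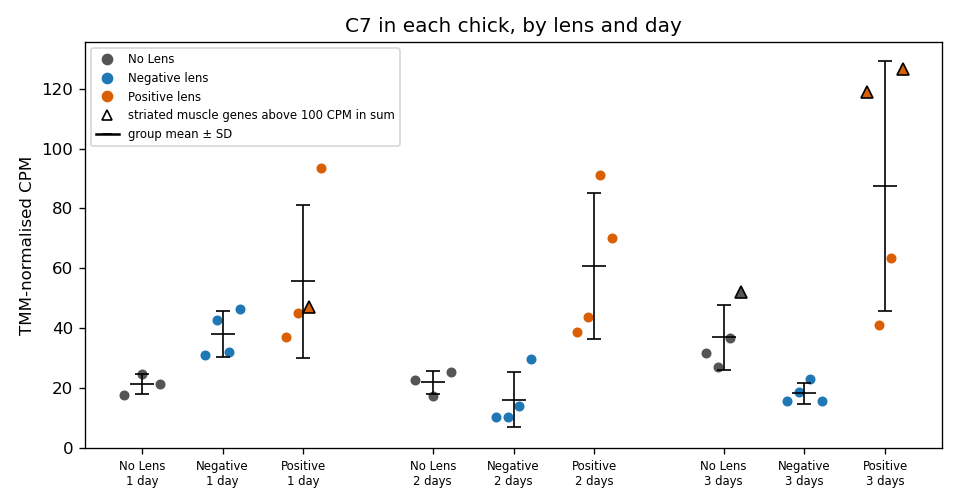
TMM-normalised CPM of C7 (y axis) in each chick (points), by lens and days of lens-wear (x axis), with the group mean and SD in black and triangles for the 4 libraries whose striated muscle genes summed to more than 100 CPM. Positive lens chicks were above No Lens chicks on days 1 and 2, and Negative lens chicks lay above them on day 1 and below them on day 3.

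C7 was high in 3 of the 4 libraries with striated muscle genes: No Lens 3 days replicate 4 had the highest value of its group, and Positive lens 3 days replicates 1 and 4 had the 2 highest of theirs. Without the 4 libraries, the Positive lens chicks of 3 days had 41.1 and 63.4 CPM against 27.0 to 37.0 CPM in No Lens chicks, and the fold changes shrank. Positive lens against No Lens was then log2 0.74 ± 0.21 and no longer called (adjusted p = 0.342), and Negative lens against Positive lens was log2 -1.57 ± 0.20 and still called (adjusted p = 0.0344). Of the Positive lens chicks of 3 days, these fits kept only replicates 2 and 3. Replicate 2 was the shallowest library and held 89.0 CPM of striated muscle genes. Stroma and fibroblast markers, of which the 9 present in the table were detected in every library, summed to 996 to 1189 CPM in No Lens chicks of 3 days, to 983 to 1221 CPM in Negative lens chicks and to 1157 to 1884 CPM in Positive lens chicks. With their log2 sum as a covariate both calls of day 3 were lost, at log2 0.66 ± 0.36 for Positive lens against No Lens (adjusted p = 0.619) and -1.78 ± 0.35 for Negative lens against Positive lens (adjusted p = 0.399).

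With the library axis score as a covariate, Positive lens against No Lens was log2 1.44 ± 0.44 and not called (adjusted p = 0.945, 0 genes called), and Negative lens against Positive lens was log2 -2.41 ± 0.33 and called (adjusted p = 0.0178). Positive lens against No Lens was also not called with scaling by total counts alone (log2 1.26, adjusted p = 0.0509) or with all 34 chicks in a single fit (log2 1.26, adjusted p = 0.147). It was lost in 9 of 12 fits that each left 1 chick out, with log2 fold changes of 1.02 to 1.48 and adjusted p of 0.0145 to 0.148. It stayed without Positive lens replicate 2, Negative lens replicate 2 or Negative lens replicate 4 of 3 days. The call between the lenses of opposite sign was lost in 1 of 12, without Negative lens 3 days replicate 2 (log2 -2.34, adjusted p = 0.057), and its fold change ranged from -2.51 to -2.09.

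**Figure D4:**
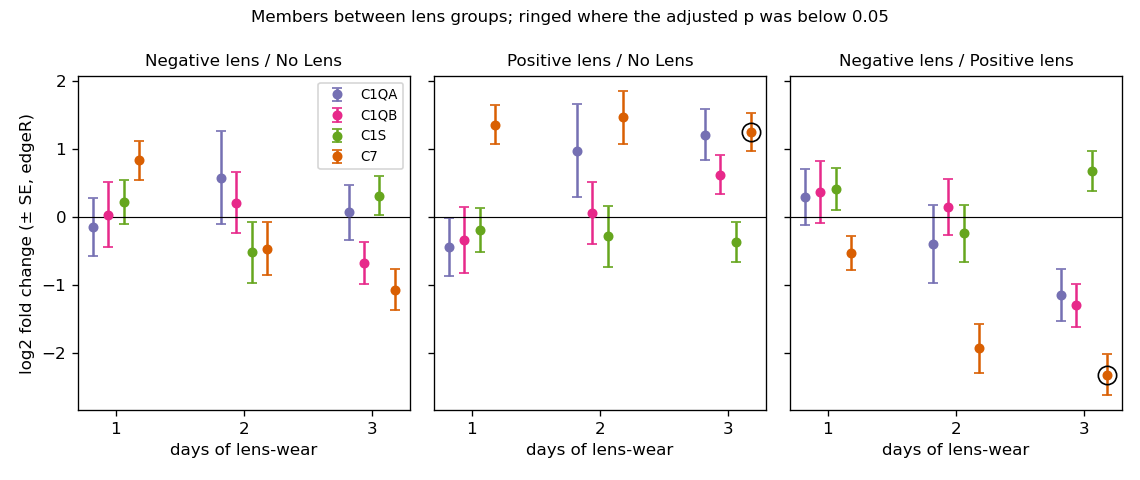
log2 fold change with its SE (y axis) of C1QA, C1QB, C1S and C7 between lens groups after 1, 2 and 3 days (x axis), from edgeR, with a ring around values called at an adjusted p below 0.05. C7 is above 0 for the positive lens on all 3 days (1.36, 1.47 and 1.25) and falls from 0.83 to -1.07 for the negative lens.

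Between days, the values of C7 are likewise a description. The No Lens chicks of 3 days were above all those of 1 day (log2 0.82 ± 0.21) and of 2 days (log2 0.76 ± 0.22), patterns shared by 5.95 and 2.91% of the genes tested. Under the negative lens day 2 lay below day 1 in every chick by log2 -1.24 ± 0.28, as did day 3 by -1.09 ± 0.28, where 2.38 and 1.52% of genes did so. The Negative lens chicks of day 2 and day 3 overlapped. Under the positive lens the days overlapped, with log2 0.16 ± 0.38 from day 1 to day 2 and 0.53 ± 0.38 from day 2 to day 3. Over the 9 comparisons of days edgeR called 0 of the 4 tested members and between 0 and 0.0264% of all genes. DESeq2 called between 0 and 1.32% of all genes and 1 member, C7 under the negative lens from day 1 to day 2. That contrast was taken as one that chose C7, and DESeq2 called 0.183% of all genes in it.

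The Negative lens effect on C7 moved by log2 -1.88 ± 0.51 from day 1 to day 3 and the Positive lens effect by -0.09 ± 0.49. Both changes hold the chicks of 1 day and are given as a description.

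Of 57 further complement genes on the lists, 29 were present and 23 were tested after 3 days. None was called by edgeR in the fits by day or lens group, or in the tests of a change in lens effect, 24 comparisons in all. After 3 days of positive lens-wear 17 of the 23 lay above 0 and 6 below, with a median log2 fold change of 0.13 against -0.01 over all genes tested. The tilt was not particular to that group. After 2 days 19 lay above 0 and 4 below for Positive lens against No Lens, and 18 and 5 for Negative lens against No Lens. Negative lens gave 17 and 7 after 1 day and 14 and 9 after 3 days, and Positive lens gave 10 and 14 after 1 day. For Positive lens against No Lens after 3 days DESeq2 called 4 of the genes, MASP1, SERPING1, VTN and LRP1, where it called 4.41% of all genes. SERPING1, the C1 inhibitor, had 3.76 to 9.06 CPM in No Lens and 10.4 to 12.8 CPM in Positive lens chicks (log2 1.13 ± 0.35, adjusted p = 0.0928 in edgeR and 0.0441 in DESeq2). VTN, or vitronectin, which keeps the terminal complex out of membranes, had 108 to 132 and 148 to 221 CPM (log2 0.50 ± 0.15, adjusted p = 0.0889 in edgeR and 0.038 in DESeq2). LRP1, a scavenger receptor, had 298 to 403 and 454 to 587 CPM (log2 0.56 ± 0.17, adjusted p = 0.0888 in edgeR and 0.0295 in DESeq2). With the library axis score as a covariate these 3 genes gave log2 values of -0.04 ± 0.28, 0.09 ± 0.17 and -0.07 ± 0.13.

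MASP1, a protease of the lectin pathway, was the fourth. After 3 days it had 2.48 to 3.12 CPM in No Lens, 1.501 to 3.098 CPM in Negative lens and 4.76 to 8.09 CPM in Positive lens chicks. Positive lens exceeded No Lens by log2 1.13 ± 0.28 (adjusted p = 0.0603 in edgeR and 0.0289 in DESeq2), and by 1.17 ± 0.42 with the axis score as a covariate (adjusted p = 0.968). Negative lens was below Positive lens without overlap on each of the 3 days, by log2 -1.29 ± 0.36, -1.31 ± 0.29 and -1.52 ± 0.29 (adjusted p = 0.758, 0.524 and 0.142 in edgeR), where 0.865, 1.31 and 2.01% of the genes tested did so. The last of these was called by DESeq2 (adjusted p = 0.0169) and by edgeR with all 34 chicks in a single fit (log2 -1.54 ± 0.32, adjusted p = 0.0131). In edgeR it was not called with the axis score (log2 -1.53 ± 0.33, adjusted p = 0.133) or stroma markers (-1.25 ± 0.39, adjusted p = 0.999) as a covariate. Nor was it called without the libraries high in striated muscle genes (log2 -1.50 ± 0.41, adjusted p = 0.908). With stroma markers as a covariate, Positive lens against No Lens for MASP1 was log2 0.83 ± 0.40 (adjusted p = 0.579). CFD, or factor D, the protease that starts the alternative pathway, had 4.05 to 11.6 CPM in No Lens and 10.8 to 27.8 CPM in Positive lens chicks of 3 days, with overlap (log2 1.63 ± 0.42, adjusted p = 0.0612), and log2 0.42 ± 0.53 with the axis score.

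Over all 34 chicks, the gene whose log2 level was most like that of C7 among 11877 genes was NPR3, the natriuretic peptide clearance receptor (Pearson r = 0.83, and 0.65 within groups). It was followed by the unnamed gene ENSGALG00000001629 (r = 0.79, and 0.41 within groups) and by periostin, a matrix protein listed as OSF-2 (r = 0.79, and 0.66 within groups). The mean of C1QA and C1QB was most like RAB11FIP5 (r = 0.83), GPX3 (r = 0.81) and NEURL1B (r = 0.81). C1S was most like ENSGALG00000021325 (r = 0.70), ANO4 (r = 0.66) and SMYD2 (r = 0.66), and CFI was most like MTF2 (r = 0.60), SWT1 (r = 0.57) and ENSGALG00000021710 (r = 0.53). These genes were picked as the highest of all, so the values carry no test, and the chicks share lens groups, days and the library axis.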

How the data were processed

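RNA from 34 eyes was sequenced as stranded single-end libraries. Per the labels and the study's methods, the authors trimmed reads (cutadapt, Trimmomatic), aligned them to galGal4 (TopHat2, Bowtie2), counted them per gene (HTSeq) and deposited unnormalised counts as whole numbers. Only uniquely mapped reads were counted, so genes with near-identical copies may be counted low. Whether strand was used in counting is not given in the sources used here.

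Groups came from the sample labels. The counts of No Lens 3 days replicate 1 stood under a name with a suffix that no other library had, and were matched to that chick by name. The counts were tested with edgeR 4.0.16 (R 4.3.3): filterByExpr (minimum count 10, minimum total 15), TMM, and the quasi-likelihood test with 1 mean per group. Fits held the chicks of 1 day (lens comparisons), of 1 lens group (time) or all 34 (change of lens effect between days). A call is a Benjamini-Hochberg adjusted p below 0.05 over all genes tested. Errors are SE for fold changes, which for edgeR were worked back from the log2 fold change and its test statistic. CPM were TMM-normalised, and log2 CPM used a prior count of 2. The fitting script was tested on simulated data. DESeq2 1.42.0, edgeR's likelihood ratio test and limma-voom (limma 3.58.1) were alternatives. Correlations used values centred on group means, with 100000 permutations (SciPy 1.17.1).

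The members and the gene lists were chosen with earlier results of these data known. The text names the 5 members, every other complement gene called by edgeR or DESeq2 and some that were not, and the 3 genes with the highest Pearson r to C7, C1S, CFI and the mean of C1QA and C1QB. Nothing states that chicks of a group were reared or processed apart. The p-values rest on the spread between these chicks and do not cover any handling that a group may have shared. No sequences are shown, and the coordinates of the members are not given because the annotation used here is of another build.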

Additional observations from a re-analysis of the deposited data

Results flagged for a closer look

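Dixon's ratio, the gap of the most extreme chick to its neighbour divided by the range of the group, was computed for the 5 members in each group of 4 chicks, 35 cases in all, and chance passes its limit in a share of about 0.05 of groups. It passed in 1 case: C1S in the Positive lens group of 3 days, where replicate 2 was low (ratio 0.889, 10.1 CPM against 19.2 to 20.4 CPM in the others). That library was the shallowest and held 15 reads of C1S.

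C7 differed between the lenses of opposite sign after 3 days (log2 -2.32 for Negative lens against Positive lens), by the edgeR test of the difference itself. Negative lens chicks were below, and 3 of 4 Positive lens chicks above, every No Lens chick of that day.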

How the results depend on the processing

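No paired analysis was possible because replicate numbers followed accession order and each chick belonged to 1 group. The calls of C7 after 1 and 2 days and between them fall on contrasts taken as those that chose it, or on contrasts that share their chicks. Those calls support nothing. Counts of members called, from 0 with edgeR's quasi-likelihood test, became 1 (C7) for Positive lens against No Lens after 1 day (DESeq2 with and without its prior, likelihood ratio test) and after 2 days (DESeq2 with its prior), for Negative against Positive lens after 2 days (both DESeq2 settings, likelihood ratio test, limma-voom, all 34 chicks in 1 fit, library axis covariate; 0 to 1 with 1 chick left out), and for Negative lens from day 1 to day 2 (both DESeq2 settings, likelihood ratio test, library axis covariate; 0 to 1 with 1 chick left out). Positive lens against No Lens after 3 days went from 1 to 2 with the likelihood ratio test and limma-voom (C1QA added), and to 0 with total counts alone, all 34 chicks in 1 fit, the library axis or stroma covariate, or without libraries high in striated muscle genes (0 to 2 with 1 chick left out). Negative against Positive lens after 3 days went from 1 to 2 with the likelihood ratio test (C1QB added) and to 0 with the stroma covariate (0 to 1 with 1 chick left out). DESeq2 with its prior called 0.0383 and 0.0689% of all genes for Positive lens against No Lens after 1 and 2 days. It called 0.0919% for Negative against Positive lens after 2 days and 0.183% for Negative lens from day 1 to day 2. After 3 days it called 4.41% for Positive lens against No Lens and 0.297% for Negative against Positive lens. For the other settings that raised a count that share is not given here, so those counts are only a description. The covariates and the muscle list were chosen after seeing the data. Of 484 refits of the 21 member fold changes with an unadjusted p below 0.05, a set in which sign changes are unlikely, 0 changed sign.

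Low counts limit C1QA, C1QB and CFI, and the annotation limits C3 and C1QC. The 9 comparisons of lenses share chicks within a day, and the library axis separated the Positive lens from the No Lens chicks of 3 days. The cause of each changed call was not tested.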

Other observations

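A few complement genes outside the members were steady across chicks. C4BPA, the alpha chain of the C4b-binding protein that restrains the classical pathway, lay between 44.1 and 66.7 CPM in all 34 chicks, with a variation between chicks of a group of 8.13%. SUSD4, a membrane regulator, lay between 31.0 and 50.6 CPM with 8.74%, and CALR, or calreticulin, a C1q-binding chaperone, between 138 and 244 CPM with 10.9%. The median over the 11882 genes that passed the filter was 12.9%, and C7 and C1QA were at 32.4 and 39.2%. Most of the other complement genes that passed it were above that median, up to 68.1% for CFD.

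C8B, a partner of C7 in the membrane attack complex, had 14.2 to 27.6 CPM, and DESeq2 and edgeR called it in no comparison. C5, which starts that complex, had 0 to 13 reads per chick and failed the filter. Of the collectins, COLEC12 had 72.7 to 120 CPM and COLEC10 had 12.1 to 29.7 CPM.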
